A study of Mus musculus with 768 samples.

Results

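Endothelial cells of mouse PyMT tumours that carry the MECA-79 epitope (TU_HEV) were compared with endothelial cells of PyMT tumours that lack it (TU_EC), across all genes. PyMT tumours are mammary tumours driven by the polyoma virus middle T antigen. Per the labels, leukocytes and tumour cells were depleted from the dissociated tumours with beads against CD45 and EpCAM, and CD31-positive cells without CD45 were then sorted 1 per well into plates of 96 wells by their MECA-79 staining. TU_HEV filled the plates pool3 and pool4, and TU_EC filled poolA, poolB, poolC and poolD. A well was kept with at least 50000 deposited counts, at least 1000 genes with a count, at most 30% of its counts in mitochondrial genes, and at least 2 of the 5 endothelial genes Pecam1, Cdh5, Tie1, Egfl7 and Eng at 10 CPM or more. CPM is the count of a gene scaled to a total of 1000000 for the cell, plate or group. The filters kept 98 TU_HEV cells (51.0% of the wells, 50 on pool3 and 48 on pool4) and 79.9% of the TU_EC wells (69, 81, 84 and 73 cells on poolA to poolD), 405 cells of the 768 wells of the series. The labels give both groups the same tumour and no strain, further allele, promoter, treatment, age or animal. Each group was therefore treated as 1 sample, no p-value is given, and the plates show the spread between plates rather than between animals. The TU_EC plates form a library series and a deposited file of their own, so the gate and the set of libraries cannot be told apart.

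High endothelial venules (HEVs) are postcapillary venules of lymph nodes whose endothelium displays sulfated, sialylated and fucosylated O-glycans on mucin-like proteins. L-selectin on naive lymphocytes binds these glycans, the lymphocytes roll, and chemokines and integrin ligands then bring them to arrest. The MECA-79 antibody recognises the 6-sulfo form of these glycans, and vessels that bind it are also found in some tumours and inflamed tissues. Most other tumour endothelium belongs to capillaries, arteries, veins and the sprouting, matrix-producing cells of angiogenesis.

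The retained TU_HEV cells summed to 132533194 counts and the TU_EC cells to 153377850, both without the ribosomal RNA features CT010467.1 and AY036118. These features took 9.36% of deposited counts in TU_HEV and 31.6% in TU_EC, and CPM are taken over the remaining counts. The median cell held 1347865 counts in TU_HEV and 422348 in TU_EC, so shares of cells with a count are given after thinning each cell to 50000 counts (all TU_HEV cells and all but 1 TU_EC cell, 1 count worth 20 CPM). Of the TU_HEV libraries, 16 (8 of each plate) had at least 99.7% of their counts matched gene by gene within 11 lymph node libraries of the plate pool1. All 16 were kept, and leaving them out (82 TU_HEV cells) changed the count of genes at least 2-fold higher from 1084 to 1099 and of those at least 2-fold lower from 1243 to 1292. Intervals in brackets after a fold or share are exact 95% intervals. Those after a fold cover counting error of reads only, and no molecular identifiers mark which reads are PCR copies of 1 molecule. Those after a share take the cells of 1 sample as independent and do not cover the spread between animals.

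Ptprc, which encodes the CD45 that the sort left out, had no count in either group. Pecam1, which encodes CD31, stood at 2556 and 3168 CPM on pool3 and pool4 and at 2369, 2434, 2373 and 2472 CPM on poolA to poolD, but it is one of the 5 genes by which wells were kept, so its level does not check the label. T cell markers had no count in any retained cell, and none of the B cell, myeloid, epithelial, erythroid or adipocyte marker genes reached 10 CPM in either group (the adipocyte list was added after values were seen). Of the 6 leukocyte markers only Lcp1, an actin-bundling protein, reached 10 CPM, at 236.2 CPM in TU_HEV and 224.1 CPM in TU_EC. Summed over each of these lists except the leukocyte one, the TU_HEV plates ranged from 0 to 20.7 CPM and the TU_EC plates from 0 to 11.6 CPM. The 2 mural genes that reached 10 CPM, Rgs5 and Acta2, were at 1.53 and 0 CPM in TU_HEV and at 20.3 and 20.9 CPM in TU_EC. No TU_HEV cell and 2 TU_EC cells had 3 or more leukocyte, epithelial or mural markers at 10 CPM.

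Across the 9798 genes that reached 10 CPM in at least 1 group, 1084 (11.1%) were at least 2-fold higher in TU_HEV and 1243 (12.7%) at least 2-fold lower. The difference held at 2-fold in all 8 pairs of a TU_HEV plate with a TU_EC plate for 3.3% of genes on the higher side and 3.79% on the lower side. The median log2 ratio of all genes was -0.03, with -0.05 to -0.01 over the plate pairs. Scaling by the full deposited totals would move this median by 0.40 and give 1907 higher and 611 lower genes, so directions below are relative to the scaling without ribosomal RNA. Levels are not compared between genes, since CPM of full-length libraries grow with transcript length. Counts of list members given below are to be read beside the 11.1% higher and 12.7% lower of all genes.

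**Figure D1:**
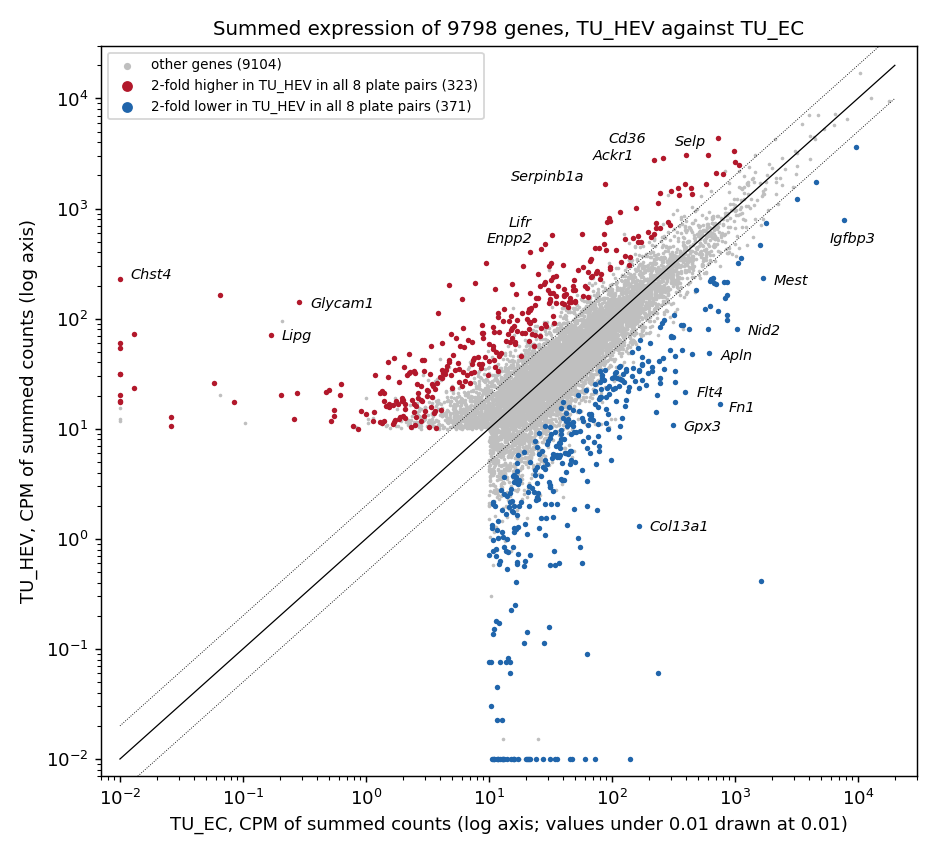
Summed CPM of each of 9798 genes in TU_HEV (vertical, log axis) against TU_EC (horizontal, log axis), with the line of equality and dotted lines at 2-fold. Genes at least 2-fold apart in all 8 plate pairs are coloured (3.3% higher in red, 3.79% lower in blue), and Chst4 lies at the left edge with no TU_EC count.

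TU_HEV cells held Chst4 and Fut7, 2 enzymes of the MECA-79 and L-selectin ligand pathway of which no TU_EC cell held a count, while the other enzymes of the list were higher by less or close to even. MECA-79 binding chose the cells, so these genes check the gate more than they describe a new property of the cells. All 9 genes of the synthesis list reached 10 CPM, 4 of them at least 2-fold higher in TU_HEV and 0 lower (11.1% and 12.7% of all genes), with a median log2 ratio of 0.92 beside -0.03 over all genes. Leaving out the TU_HEV libraries shared with lymph node cells gave a median of 0.87.

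Chst4, the sulfotransferase that puts the 6-sulfate on HEV glycans (GRCm38 chromosome 8 from 110029153 to 110039740, a protein-coding gene of the mouse GENCODE release 21), stood at 313.8 CPM on pool3 and 158.2 CPM on pool4. No TU_EC library held a count of it. Against a floor of 3 counts over the TU_EC group, TU_HEV was at least 11674-fold higher. After thinning, 43 of 98 TU_HEV cells (43.9%, 33.9 to 54.3%) and no TU_EC cell held a count, where a count of 0 allows a share of up to 0.98%. The other 55 TU_HEV cells showed no Chst4 count at this depth. Fut7, which adds the fucose that L-selectin needs, was at 28.8 and 13.3 CPM on the TU_HEV plates, with no TU_EC count and at least 1038-fold higher. Its counts came from few cells, 10 of 98 after thinning, and 1 cell held 28.1% of them.

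St3gal6 and St3gal4 add the terminal sialic acid. St3gal6 stood at 243.7 and 237.8 CPM on pool3 and pool4 and at 57.8, 46.3, 104.9 and 55.9 CPM on poolA to poolD, 3.56-fold higher in TU_HEV and apart in every plate pair. St3gal4 stood at 223.5 and 117.9 CPM, a 1.90-fold difference that stayed under 2-fold. C1galt1, which builds the core 1 O-glycan on which the MECA-79 structure extends, was 2.22-fold higher (21.3 against 9.58 CPM), with its lowest TU_HEV plate, pool3 at 18.6 CPM, next to poolB at 18.3 CPM. Chst2, the other sulfotransferase of HEVs, stood at 51.8 and 63.6 CPM, with log2 ratios from -0.88 to 0.53 over the plate pairs. B3gnt3, which extends core 1, and B4galt1, a galactosyltransferase, were 1.48-fold and 1.46-fold higher. The branching enzyme Gcnt1 stood at 9.35 and 12.4 CPM.

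The mucin-like proteins that carry such glycans were split. Of 6 listed genes, 2 were at least 2-fold higher and 2 lower, with a median log2 ratio of -0.58. Glycam1, a secreted mucin of lymph node HEVs, stood at 191.8 and 99.1 CPM on pool3 and pool4 and at 0, 0, 0.417 and 0.801 CPM on poolA to poolD, 491-fold higher (365.7 to 676). It was found in 23 thinned TU_HEV cells and 2 TU_EC cells, and 1 TU_HEV cell held 33.6% of its counts. Madcam1, the addressin of gut venules, had 18.9 CPM in TU_HEV, of which 1 cell held 73.7%, and the groups overlapped at 1.59 CPM on pool4 and 4.26 CPM on poolA. Cd34, a mucin carrier of all blood endothelium, stood at 1907 and 1894 CPM on pool3 and pool4 and at 2121, 2301, 2423 and 2451 CPM on poolA to poolD and was thus close to even. Podxl, a sialomucin related to Cd34, was 2.90-fold lower in TU_HEV (103.2 against 299.3 CPM), and Emcn, endomucin, 1.83-fold lower. Parm1, a mucin-like membrane protein, had no TU_HEV count and 21.3 CPM in TU_EC, where 7 retained cells held it. Without cells that had 2 or more lymphatic markers, 5 of the 6 genes reached 10 CPM, 2 at least 2-fold higher and 1 lower.

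Genes that lymph node HEVs express beyond the glycan pathway were the list furthest to the TU_HEV side. All 8 reached 10 CPM, 7 were at least 2-fold higher and 1 lower, and the median log2 ratio was 2.98 (2.06 to 3.40 over the plate pairs). It was 2.78 without the TU_HEV libraries shared with lymph node cells. Per cell, the summed level of the list had a median of 7341 CPM in TU_HEV and 218.8 CPM in TU_EC, and 92.9% of TU_HEV cells lay above the TU_EC median.

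Enpp2, or autotaxin, makes lysophosphatidic acid, a lipid that acts on lymphocytes crossing the vessel. It stood at 433 and 429 CPM on pool3 and pool4 and at 13.8, 35.2, 22.1 and 34.8 CPM on poolA to poolD, 16.3-fold higher in TU_HEV. Ackr1, a decoy receptor that moves chemokines across venules, stood at 3916 and 1762 CPM on pool3 and pool4 and at 152.9, 79.5, 339.98 and 311.2 CPM on poolA to poolD, 12.5-fold higher with the 2 TU_HEV plates 2.37 to 5.62 log2 units above the TU_EC plates. The secreted glycoprotein Lrg1 stood at 5098 and 3857 CPM on pool3 and pool4 and at 541, 565, 1151 and 610.1 CPM on poolA to poolD and Apoe, a lipid carrier, at 789.6 and 715 CPM on pool3 and pool4 and at 67.2, 31.4, 137.4 and 135.8 CPM on poolA to poolD. These levels were higher on both TU_HEV plates than on every TU_EC plate.

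Sphk1 and Spns2 make and export sphingosine 1-phosphate, which keeps HEV junctions tight and guides lymphocytes. The exporter Spns2 was 2.10-fold higher (201.2 against 95.8 CPM) and the kinase Sphk1 7.75-fold (18.3 against 2.36 CPM). Ubd, a ubiquitin-like modifier induced by cytokines, was 8.02-fold higher but spread widely, from 514 to 1456 CPM on the TU_HEV plates and from 8.85 to 236.7 CPM on the TU_EC plates. The exception was Ccl21a, the CCR7 ligand of lymph node HEVs and lymphatic vessels, at 0.415 CPM in TU_HEV and 1627 CPM in TU_EC. Without the 13 TU_EC and 2 TU_HEV cells that had 2 or more lymphatic markers, Ccl21a stood at 1.82 CPM in TU_EC and 0.413 CPM in TU_HEV. The counts of Ccl21a are uncertain, as close gene copies exist.

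The receptors that capture leukocytes on venules were higher in TU_HEV. Of 10 listed adhesion genes 9 reached 10 CPM (Cd99 is not among the features), 5 were at least 2-fold higher and 0 lower, and the median log2 ratio was 1.12. Leaving out the TU_HEV libraries shared with lymph node cells gave 4 higher genes and a median of 0.90. Selp, P-selectin, stood at 3267 and 2912 CPM on pool3 and pool4 and at 316.8, 277.1, 644 and 314.004 CPM on poolA to poolD, 7.73-fold higher. Sele, E-selectin, was at 588 and 583 CPM on pool3 and pool4 and from 33.1 to 135.8 CPM on the TU_EC plates, 6.79-fold higher. Vcam1, the ligand of the integrin VLA-4, was 8.54-fold higher, with 1019.6 and 644 CPM against 71.7 to 120.2 CPM. Icam1, the ligand of LFA-1, was 2.83-fold higher (967 against 341.3 CPM) and Jam2, a junctional adhesion molecule, 2.18-fold. Constitutive members of the list differed less, with Icam2 1.64-fold and F11r 1.42-fold lower and Pecam1 1.20-fold higher.

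Venous identity genes were partly on the TU_HEV side. The list includes Selp and Ackr1 from above. Of its 10 listed genes, 5 were at least 2-fold higher and 0 lower, with a median log2 ratio of 1.20. Il1r1, the interleukin 1 receptor, stood at 269.4 and 242.6 CPM on pool3 and pool4 and at 20.7, 33.9, 20.3 and 25.6 CPM on poolA to poolD, 10.1-fold higher and in 70.4% of thinned TU_HEV cells against 11.8%. The clotting protein gene Vwf was 2.82-fold higher (730.2 against 259.001 CPM) and the protease gene Tll1 4.21-fold. Nr2f2, the transcription factor that sets venous fate, was 1.86-fold higher, with 76.8 and 47.1 CPM on the TU_HEV plates and 26.5 to 46.01 CPM on the TU_EC plates. Ephb4, the venous ephrin receptor, stood at 152.2 and 171.96 CPM, Plvap, a component of fenestral diaphragms, at 4550.3 and 4054 CPM, and Aplnr, the apelin receptor, was 1.95-fold lower in TU_HEV.

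Fatty acid uptake genes of capillary endothelium were also on the TU_HEV side. All 16 listed capillary and lipid genes reached 10 CPM, 10 were at least 2-fold higher and 2 lower, and the median log2 ratio was 1.77. Cd36, a fatty acid transporter (GRCm38 chromosome 5 from 17781690 to 17888801, a protein-coding gene of the mouse GENCODE release 21), stood at 3263 and 2573 CPM on pool3 and pool4 and at 106.7, 332.1, 360.7 and 198.8 CPM on poolA to poolD, 11.1-fold higher and in 90.8% of thinned TU_HEV cells against 19.3%. The fatty acid carriers Fabp4 and Fabp5 were 5.11-fold and 3.51-fold higher, and Fabp4 stood at 3455 and 2798 CPM on the TU_HEV plates against 415 to 697 CPM. Meox2, a transcription factor of lipid-transporting endothelium, was 2.86-fold higher.

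Counts of some of these genes came from few TU_HEV cells. Lpl, lipoprotein lipase, stood at 99.9 and 213.5 CPM on pool3 and pool4 and had 10 counts in all TU_EC cells together, yet only 11 of 98 thinned TU_HEV cells held it. The glycerol channel Aqp7 was found in 10 of 98 thinned cells and Timp4, a metalloprotease inhibitor, in 5. The venule-gene cells described last held no Timp4 count in either group. Car4, a membrane carbonic anhydrase of capillaries, was broader, in 34 thinned TU_HEV cells and 7 TU_EC cells, at 529.6 and 147.2 CPM on pool3 and pool4 and at 5.12, 27.95, 2.60 and 0 CPM on poolA to poolD. Gpihbp1, which anchors lipoprotein lipase on capillaries, went the other way at 442 and 495 CPM on pool3 and pool4 and at 1471, 1782, 1496 and 1645 CPM on poolA to poolD, 3.40-fold lower in TU_HEV, as did the cadherin Cdh13 at 2.70-fold lower.

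Chst4, venule genes and Cd36 were found together in single TU_HEV cells. All 43 thinned cells with a Chst4 count also held Selp and Cd36, which were found in 76 and 89 of the 98 cells. Ackr1 was held by 66 cells, all among the 76 with Selp. Of the 22 cells without Selp, 7 held Lpl, against 4 of the 76 with Selp. Glycam1 was held by 13 of the 43 Chst4 cells and by 10 of the other 55. In TU_EC, 14.4% of thinned cells (44 cells) held Selp, 29 of them with Ackr1 and 24 with Cd36. These counts describe cells of 1 sample per group, and no test was made on them.

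**Figure D2:**
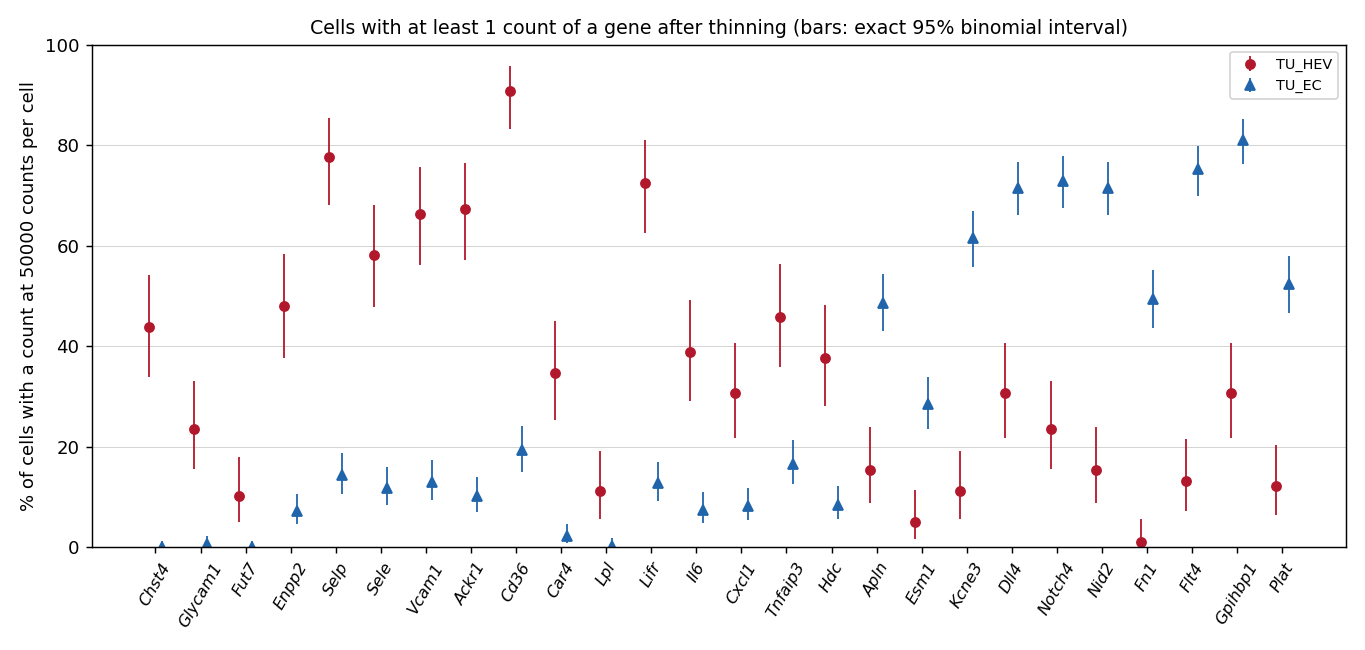
Share of thinned cells with at least 1 count of 26 genes in TU_HEV (red circles, 98 cells) and TU_EC (blue triangles). Bars are exact 95% binomial intervals that take the cells of 1 sample as independent. Genes from Chst4 to Hdc lie higher in TU_HEV, with Selp in 77.6% against 14.4%, and those from Apln to Plat lie lower, with Fn1 in 1.02% against 49.3%.

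By size of ratio, among genes at 50 CPM or more in at least 30% of cells and 2-fold apart in all 8 plate pairs, the 15 furthest to the TU_HEV side led with Chst4, Glycam1 and Lipg. Lipg, endothelial lipase, stood at 68.3 and 74.5 CPM on pool3 and pool4 and at 0.17 CPM over TU_EC, 423-fold higher. Car4 was 33.4-fold higher, and Dennd2d, a DENN domain regulator of Rab proteins, 29.04-fold (111.5 against 3.84 CPM). The receptor for platelet-activating factor, Ptafr, stood at 184.7 and 123.9 CPM on pool3 and pool4 and at 4.87, 1.43, 9.36 and 8.94 CPM on poolA to poolD. Serpinb1a, an inhibitor of neutrophil serine proteases (GRCm38 chromosome 13 from 32842092 to 32851185, a protein-coding gene of the mouse GENCODE release 21), stood at 1980.4 and 1407 CPM on pool3 and pool4 and at 39.02, 146.4, 93.4 and 58.4 CPM on poolA to poolD, 18.99-fold higher, although it has close paralogs that can share reads. Every TU_HEV plate was above every TU_EC plate for these genes, as the choice required.

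Sult1a1, a sulfotransferase of small phenolic compounds, was 18.9-fold higher at 405 against 21.4 CPM. Mctp1, a calcium-binding membrane protein, was at 498 and 452 CPM on pool3 and pool4 and at 15.2, 25.9, 40.03 and 30.7 CPM on poolA to poolD. The phosphate hormone gene Fgf23 stood at 94.1 and 25.7 CPM on the TU_HEV plates and at 12.1 CPM on poolC, with no count on the other TU_EC plates. Naaa, a lysosomal amidase of lipid amides, was 14.7-fold higher. Among genes at 500 CPM or more, Spint2, a serine protease inhibitor, stood at 585 against 57.3 CPM (10.2-fold), and Csf2rb2, a subunit of the mouse interleukin 3 receptor, at 769 against 96.3 CPM (7.98-fold), although its near-identical paralog Csf2rb can share its reads.

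**Figure D3:**
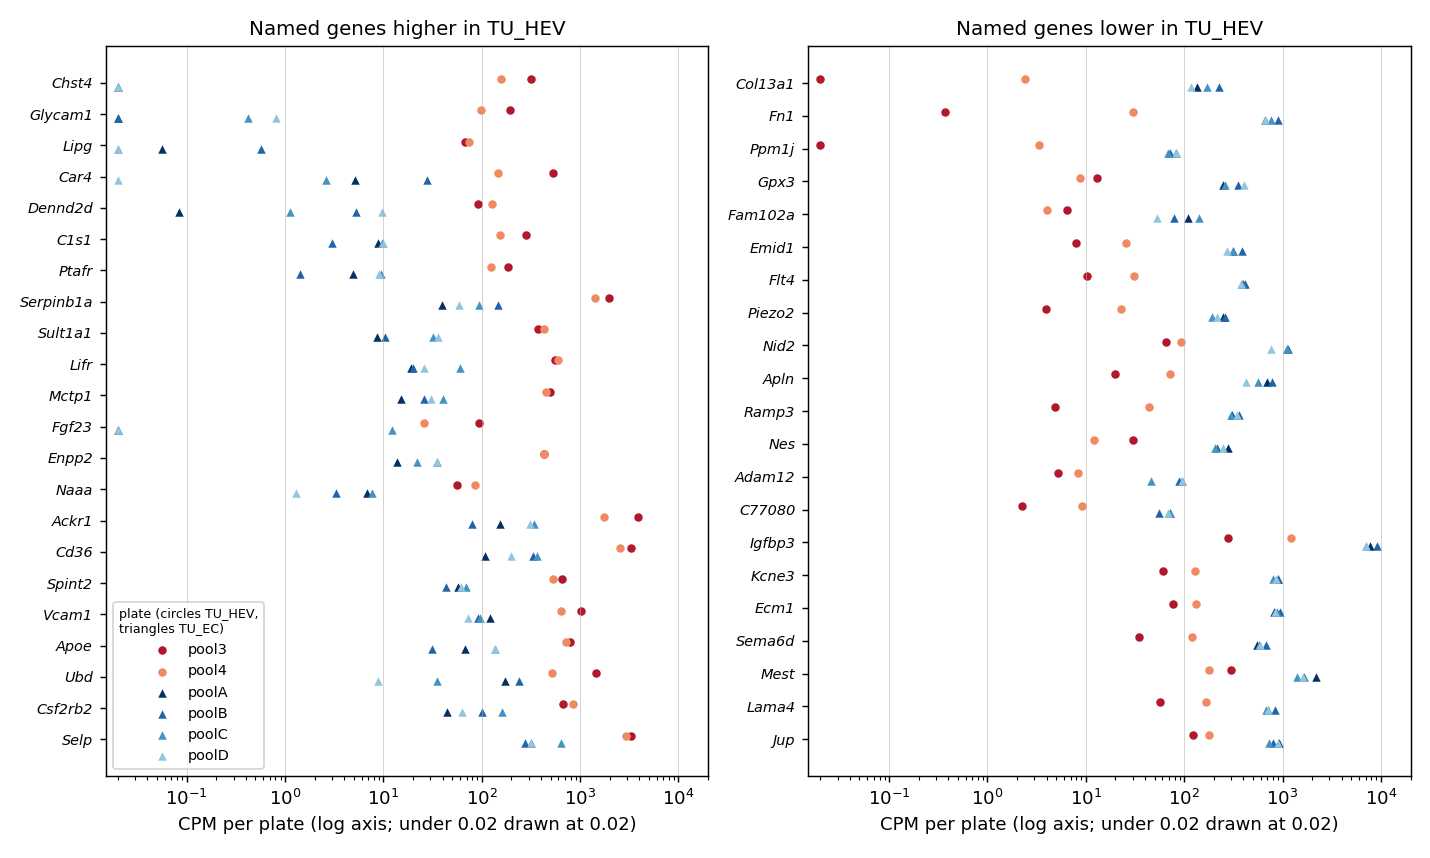
CPM on each plate (log axis) of the genes named for the size of their ratio, 22 higher (left) and 21 lower (right) in TU_HEV, with TU_HEV plates as circles and TU_EC plates as triangles. By the rule of choice no plate of 1 group overlaps the other, and pool3 lies below pool4 for Fn1, at 0.368 against 30.04 CPM.

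The cytokine receptors that signal through gp130 and STAT3 were among the lists furthest to the TU_HEV side. Of 10 listed genes 9 reached 10 CPM, 6 were at least 2-fold higher and 0 lower, and the median log2 ratio was 1.84. Il6st, which encodes gp130, stood at 1481 and 1284 CPM on pool3 and pool4 and at 173.8, 167.9, 378.6 and 257.6 CPM on poolA to poolD, 5.55-fold higher. Lifr, the receptor of leukaemia inhibitory factor, stood at 554 and 599 CPM on pool3 and pool4 and at 19.04, 19.97, 60.5 and 25.95 CPM on poolA to poolD, 17.9-fold higher and in 72.4% of thinned TU_HEV cells against 12.7%. Osmr, the oncostatin M receptor, was 5.51-fold higher (435 against 78.96 CPM). All 3 receptor genes were higher on both TU_HEV plates than on every TU_EC plate.

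Downstream, the feedback inhibitor Socs3 was 2.22-fold higher and the transcription factor Cebpd 3.58-fold, while Stat3 itself stood at 289.9 against 210.96 CPM with overlapping plates. Il6ra, the specific interleukin 6 receptor, was near 0 in both groups (0.317 and 3.36 CPM). The ligand Il6 stood at 351.6 and 265.99 CPM on pool3 and pool4 and at 5.84, 8.19, 92.7 and 49.5 CPM on poolA to poolD, 7.59-fold higher, and was held by 38 thinned TU_HEV cells and 23 TU_EC cells. Summed over this list, the median cell held 4139 CPM in TU_HEV and 569 CPM in TU_EC, and 5.21% of TU_EC cells lay above the TU_HEV median.

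NF-kB, the pathway through which tumour necrosis factor and lymphotoxin act on endothelium, showed higher targets and receptors from even to higher. All 16 listed genes reached 10 CPM, 7 were at least 2-fold higher and 0 lower, and the median log2 ratio was 0.97. Tnfaip3, a feedback inhibitor also called A20, stood at 475 and 412 CPM on pool3 and pool4 and at 137.5, 56.1, 41.7 and 62.8 CPM on poolA to poolD, 6.07-fold higher. Nfkbia, the inhibitor IkB alpha, stood at 2469.8 and 2457 CPM on pool3 and pool4 and at 1209, 997, 1069.8 and 1068 CPM on poolA to poolD, 2.28-fold higher. Birc3 and Traf1, survival adaptors, were 3.76-fold and 5.55-fold higher, and Tnfrsf11a, which encodes RANK, was 9.56-fold higher (64.2 against 6.72 CPM). Ltbr, the lymphotoxin beta receptor needed for HEV upkeep in lymph nodes, was even at 97.02 and 161.5 CPM on pool3 and pool4 and at 199.97, 159.2, 141.4 and 114.7 CPM on poolA to poolD. The subunit Rela (142.9 and 144.7 CPM) was even as well, and Nfkb2 of the alternative pathway was 1.96-fold higher.

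Cytokines were partly on the TU_HEV side, and chemokines lay on both sides. Csf3, the granulocyte colony stimulating factor, was 9.06-fold higher (279.3 against 30.8 CPM), but only 19 of 98 thinned cells held it and 1 cell had 23.2% of its counts, and without the 16 libraries shared with lymph node cells its log2 ratio was 2.08 in place of 3.18. Cxcl1, a neutrophil chemokine, stood at 363.9 and 249.2 CPM on pool3 and pool4 and at 7.24, 25.6, 68.2 and 13.4 CPM on poolA to poolD, 9.80-fold higher. Tnfsf10 and Il15, ligands that act on T and NK cells, were 4.12-fold and 3.21-fold higher. Of 13 listed cytokines 7 reached 10 CPM, 4 at least 2-fold higher and 0 lower. Chemokines and their decoy receptors were mixed, with 11 of 18 at 10 CPM, 4 at least 2-fold higher and 4 lower, and a median log2 ratio of -0.63 that turned to 0.24 without pool4.

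The plates of the groups overlapped for the T cell chemokines. Cxcl9 stood at 702 and 395 CPM on pool3 and pool4 and at 589, 1173, 199.6 and 260.8 CPM on poolA to poolD and Cxcl10 at 716 and 326.3 CPM on pool3 and pool4 and at 222.7, 500.4, 36.6 and 9.55 CPM on poolA to poolD. Both TU_HEV plates lay within the range of the TU_EC plates for Cxcl9, and for Cxcl10 pool4 lay within it and pool3 above it. In both genes poolA and poolB were above poolC and poolD. Cxcl12, the CXCR4 ligand, was 1.55-fold lower in TU_HEV. The scavenging receptors Ackr3 and Ackr2 were 6.11-fold and 7.02-fold lower, at 32.03 against 195.7 CPM and 11.02 against 77.4 CPM.

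Interferon-stimulated genes were on the TU_HEV side with wide spread between plates. Of 21 listed genes 20 reached 10 CPM, 12 were at least 2-fold higher and 1 lower, and the median log2 ratio was 1.01 (0.33 to 1.60 over the plate pairs), but only 3 were 2-fold higher in every pair. Irf1, which interferon gamma induces, stood at 1003 and 795 CPM on pool3 and pool4 and at 406, 354.5, 263.3 and 229.2 CPM on poolA to poolD, 2.83-fold higher. Ifit1, which binds foreign RNA, was 13.2-fold higher (81.7 against 6.17 CPM) in 20 thinned TU_HEV cells and 9 TU_EC cells. Iigp1, a GTPase against vacuolar pathogens, was 3.06-fold higher at 1359.7 against 445 CPM. The antiviral gene Rsad2 was 3.76-fold lower, at 3.64 against 13.7 CPM. Members of the Gbp, Ifit and Irg families share sequence, so their reads may be split between copies.

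Antigen presentation genes were higher in nearly every member. All 13 listed MHC class I genes reached 10 CPM, all 13 had a higher CPM in TU_HEV, 6 were at least 2-fold higher, and the median log2 ratio was 0.91. B2m, the light chain of class I, stood at 6912 and 7164 CPM on pool3 and pool4 and at 3504, 4853, 3589.6 and 3935 CPM on poolA to poolD, 1.77-fold higher, and the immunoproteasome subunit Psmb8 at 759 and 667 CPM on pool3 and pool4 and at 325.9, 282.1, 267.05 and 323.8 CPM on poolA to poolD, 2.39-fold. The peptide transporters Tap1 and Tap2 were 2.05-fold and 2.18-fold higher. Of 8 listed class II genes 7 reached 10 CPM and 5 were at least 2-fold higher, with Cd74, the invariant chain, at 2079.6 and 2288 CPM on pool3 and pool4 and at 994, 1054, 674 and 572 CPM on poolA to poolD. Reads of H2 genes can be shared between family members. The median cell held 29052 CPM of the class I list in TU_HEV and 13951 CPM in TU_EC, and 95.9% of TU_HEV cells lay above the TU_EC median.

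Promoters of members of the lists described above are shown because they hold motifs that factors of these pathways are known to bind. They were chosen for holding a match. Motifs were searched on both strands in RefSeq windows of GRCm38.p6 from 250 bases before to 50 after each start site, with GAAA, any 2 bases and GAAA for interferon response elements, GGGA, any 2 bases and TTCC for NF-kB sites, and TTCNNNGAA for STAT sites. The interferon motif was found for 10 of the 16 interferon-stimulated genes with a window (62.5%), for 3 of 11 class I genes, and for 3.99% of all 27025 genes. Among genes 2-fold apart in all 8 plate pairs it was found for 25 higher genes (10.8%) and 10 lower genes (3.70%), beside 3.91% of the 7439 measured genes with a window. The NF-kB motif was found for 3.88% of the higher and 2.59% of the lower genes (1.90% of measured genes), and the STAT motif for 10.8% and 6.30% (8.35%). In the lists of these pathways, the NF-kB motif was found for 2 of 14 genes of the NF-kB list (14.3%), 3 of 10 cytokine genes and 1 of 11 class I genes. The STAT motif was found for 1 of 9 genes of the gp130 and STAT3 list (11.1%) and 5 of 16 interferon-stimulated genes. A match is a description of the letters and does not show binding. Each line gives 100 bases that hold a match and lie upstream of the start site, though not always next to it. Lines run 5′ to 3′ on the strand of the gene, with the matches of all 3 motifs in capitals:
Ifit1 promoter (GRCm38.p6 chr19:34640759-34640858, plus strand): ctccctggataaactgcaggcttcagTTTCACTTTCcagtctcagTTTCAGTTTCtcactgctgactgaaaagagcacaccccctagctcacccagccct
Gbp2 promoter (GRCm38.p6 chr3:142620559-142620658, plus strand): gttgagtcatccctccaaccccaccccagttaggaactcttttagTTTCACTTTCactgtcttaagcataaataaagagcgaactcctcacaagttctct
Irgm1 promoter (GRCm38.p6 chr11:48871421-48871520, minus strand): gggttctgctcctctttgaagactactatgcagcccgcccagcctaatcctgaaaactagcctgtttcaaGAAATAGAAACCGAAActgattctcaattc
B2m promoter (GRCm38.p6 chr2:122147503-122147602, plus strand): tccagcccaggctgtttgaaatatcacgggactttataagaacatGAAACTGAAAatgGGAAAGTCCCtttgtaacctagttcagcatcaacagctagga
Nfkbia promoter (GRCm38.p6 chr12:55492648-55492747, minus strand): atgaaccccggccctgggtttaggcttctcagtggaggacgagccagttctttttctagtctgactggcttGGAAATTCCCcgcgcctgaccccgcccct
Il6 promoter (GRCm38.p6 chr5:30013014-30013113, plus strand): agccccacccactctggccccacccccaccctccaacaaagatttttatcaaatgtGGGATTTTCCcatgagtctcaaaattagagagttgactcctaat
Irf1 promoter (GRCm38.p6 chr11:53769879-53769978, plus strand): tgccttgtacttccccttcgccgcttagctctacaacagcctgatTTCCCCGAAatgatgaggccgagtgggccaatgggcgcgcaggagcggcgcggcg
Socs3 promoter (GRCm38.p6 chr11:117969466-117969565, minus strand): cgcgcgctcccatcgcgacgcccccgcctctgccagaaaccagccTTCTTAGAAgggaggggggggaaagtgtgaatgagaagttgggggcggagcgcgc

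The lines for Ifit1, Gbp2, Irgm1 and B2m hold the interferon motif, with 2 matches in Ifit1 and 2 overlapping ones in Irgm1. Those for Nfkbia and Il6 hold the NF-kB motif, as does the second stretch of capitals in the B2m line, and those for Irf1 and Socs3 the STAT motif. In TU_HEV these genes stood at 13.2-fold, 1.62-fold, 2.01-fold, 1.77-fold, 2.28-fold, 7.59-fold, 2.83-fold and 2.22-fold the TU_EC level, in the same order.

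Complement genes were partly on the TU_HEV side. C1s1 and C1ra, the proteases that start the classical pathway, were 27.5-fold and 5.16-fold higher, with C1s1 at 281.6 and 154.8 CPM on pool3 and pool4 and at 8.85, 2.99, 9.69 and 9.89 CPM on poolA to poolD. Cfb, factor B of the alternative pathway, was 5.43-fold higher (473 against 87.1 CPM). Of 10 listed complement genes 7 reached 10 CPM, 4 at least 2-fold higher and 2 lower. Hdc, which makes histamine, stood at 396 and 307.5 CPM on pool3 and pool4 and at 38.96, 37.9, 113.4 and 75.2 CPM on poolA to poolD, 5.16-fold higher. It was 1 of 2 genes at least 2-fold higher, with 0 lower, among the 5 of 10 eicosanoid, histamine and vasoactive genes that reached 10 CPM, a list with a median log2 ratio of 0.51 (-0.04 to 1.44 over the plate pairs). Coagulation genes were split. Of 11 listed genes 10 reached 10 CPM, 2 at least 2-fold higher, Vwf among them, and 2 lower, with a median log2 ratio of -0.50. The plasminogen activators were lower, Plat 7.10-fold (46.05 against 326.8 CPM) and Plau 8.002-fold. Cd274, the PD-1 ligand, stood at 61.7 and 98.4 CPM on pool3 and pool4 and at 49.9, 61.3, 25.7 and 0.0308 CPM on poolA to poolD, so that its plates nearly met, and Cd276, another B7 family member, was 3.41-fold lower in TU_HEV.

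On the lower side, TU_HEV cells held less of the tip cell programme of sprouting vessels. Summed over the list, the median cell held 1313 CPM in TU_HEV and 4621 CPM in TU_EC. All 13 listed genes reached 10 CPM, 0 were at least 2-fold higher and 10 lower, and the median log2 ratio was -2.37. Apln, the apelin peptide of tip cells, stood at 19.9 and 72.6 CPM on pool3 and pool4 and at 688, 786, 557 and 423 CPM on poolA to poolD, 12.7-fold lower. Kcne3, a potassium channel subunit, stood at 60.3 and 127.6 CPM on pool3 and pool4 and at 899, 903, 809 and 859 CPM on poolA to poolD, 8.91-fold lower, and 11.2% of thinned TU_HEV cells held it against 61.4%. Esm1, endocan, had no count on pool3 and 79.5 CPM on pool4 against 181.2 to 380.4 CPM on the TU_EC plates. Angpt2, a ligand of the receptor Tie2, differed less, with 521 and 559 CPM on the TU_HEV plates against 517 to 894 CPM. Trp53i11 and Mcam, 2 other genes of tumour endothelium, were 5.17-fold and 2.23-fold lower.

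Basement membrane genes were lower in TU_HEV, both type IV collagen chains among them. Of 14 listed genes, 0 were at least 2-fold higher and 11 lower, with a median log2 ratio of -1.39. Col4a1 stood at 1655 and 1794 CPM on pool3 and pool4 and at 4439, 5029, 4512 and 4137 CPM on poolA to poolD, 2.63-fold lower, and Col4a2 was 2.62-fold lower. Fn1, fibronectin, stood at 0.368 and 30.04 CPM on pool3 and pool4 and at 658, 896, 769 and 658 CPM on poolA to poolD, 45.3-fold lower, and 1 pool4 cell held 98.7% of its TU_HEV counts. Nid2, which links laminin to collagen IV, was 13.1-fold lower (79.99 against 1045 CPM), and the vascular laminin chain Lama4 6.27-fold. Sparc, a collagen chaperone, stood at 3046 and 4099 CPM on pool3 and pool4 and at 8844, 11052, 8520.0 and 9919.9 CPM on poolA to poolD.

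Not every matrix gene followed. Lama5, a laminin chain of mature vessels, was 1.48-fold higher in TU_HEV, Lamb2 1.55-fold and Col15a1 1.78-fold. Summed over the list the median cell held 7705 CPM in TU_HEV and 25528 CPM in TU_EC, and 1.02% of TU_HEV cells lay above the TU_EC median.

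**Figure D4:**
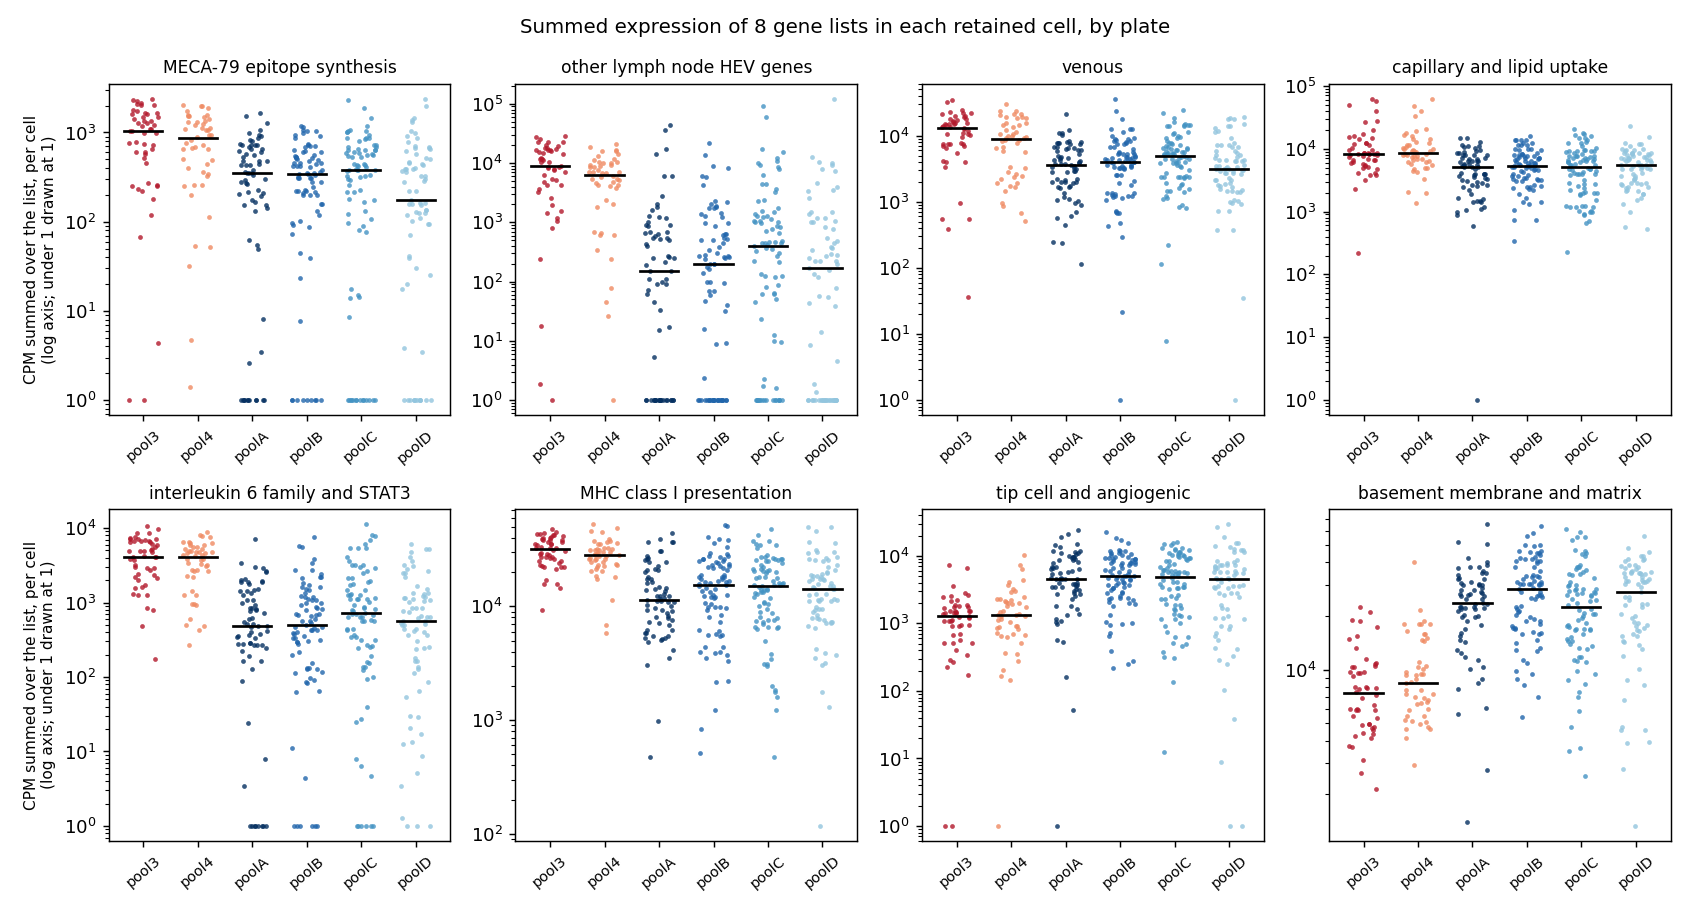
CPM summed over each of 8 gene lists in every retained cell (points, log axis) by plate, with the median of each plate as a bar. The first 6 lists have higher medians on both TU_HEV plates (red) and the last 2 lower ones, and in each list single cells of the groups overlap.

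The remaining lower genes named for the size of their ratio included surface, matrix, secreted and intracellular proteins. Col13a1, a transmembrane collagen, stood at 0 and 2.41 CPM on pool3 and pool4 and at 136.1, 224.9, 169.2 and 117.98 CPM on poolA to poolD, 125.6-fold lower. Igfbp3, a secreted binder of insulin-like growth factors, stood at 278.7 and 1215 CPM on pool3 and pool4 and at 7709.8, 9073, 7037 and 7108 CPM on poolA to poolD, 9.80-fold lower. Gpx3, a secreted glutathione peroxidase, stood at 13.1 and 8.78 CPM on pool3 and pool4 and at 248.3, 349.8, 259.8 and 407 CPM on poolA to poolD. Both TU_HEV plates lay below every TU_EC plate for each of these genes, as the choice required. Ramp3, a partner of the adrenomedullin receptor, was 12.4-fold lower, and its ligand gene Adm 9.33-fold (9.98 against 93.2 CPM). The mechanosensitive channel Piezo2 was 15.9-fold lower, the intermediate filament Nes 11.5-fold, the protease Adam12 11.4-fold, the phosphatase Ppm1j 41.1-fold and the matrix gene Emid1 18.5-fold. Fam102a and C77080 were 19.2-fold and 11.1-fold lower. Among genes at 500 CPM or more, Mest, an imprinted gene, stood at 301.99 and 179.9 CPM on pool3 and pool4 and at 2166, 1647, 1415 and 1604 CPM on poolA to poolD, and Ecm1, Sema6d and Jup, which encodes plakoglobin, were 8.13-fold, 7.46-fold and 5.36-fold lower.

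Arterial and Notch genes were lower as well. Of 10 arterial genes 0 were at least 2-fold higher and 8 lower, with a median log2 ratio of -2.22. Dll4, the Notch ligand of arteries and tip cells, stood at 86.4 and 152.2 CPM on pool3 and pool4 and at 645, 676, 485 and 449.6 CPM on poolA to poolD, 4.63-fold lower, and the connexin Gja4 was 4.71-fold lower (80.98 against 381.8 CPM). Unc5b, a netrin receptor, was 7.13-fold lower and the ephrin Efnb2 2.66-fold. Bmx, an arterial kinase, had no TU_HEV count and 15.99 CPM in TU_EC.

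Of 12 Notch pathway genes 10 reached 10 CPM, 0 at least 2-fold higher and 4 lower. Notch4, the endothelial receptor, stood at 42.3 and 88.2 CPM on pool3 and pool4 and at 339.9, 277.4, 322.7 and 328.7 CPM on poolA to poolD, 4.67-fold lower, and Notch1 was 1.80-fold lower. Hey1, a target, was 2.64-fold lower, although 1 TU_HEV cell held 52.9% of its counts. Jag1, the ligand that competes with Dll4, was 1.88-fold higher in TU_HEV (96.1 against 51.1 CPM), while Jag2 was 3.85-fold lower.

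The VEGF receptors were lower by unequal amounts. Flt4, VEGFR3, stood at 10.4 and 30.99 CPM on pool3 and pool4 and at 396, 419.9, 386 and 376.9 CPM on poolA to poolD, 18.3-fold lower, Flt1 was 2.32-fold lower (706 against 1636 CPM), and Kdr, VEGFR2, 1.89-fold (401 against 759 CPM). The ligand Vegfc was 4.84-fold lower. Flt4 is also a lymphatic marker, and 13 TU_EC cells (4.23%) and 2 TU_HEV cells (2.04%) held 2 or more lymphatic markers at 10 CPM. Without these cells Flt4 stood at 17.2 and 339.3 CPM, a difference of 19.7-fold, although Flt4 itself is 1 of the 6 markers by which they were taken out, and the lymphatic markers Prox1, Pdpn and Lyve1 were then at 1.43, 2.84 and 5.99 CPM in TU_HEV and at 0.0977, 0.0209 and 1.53 CPM in TU_EC. Of the 230 thinned TU_EC cells with a Flt4 count, 9 also held Prox1.

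Junction and pan-endothelial genes differed less. Cldn5, the main claudin of blood endothelium, was the exception at 191.6 and 422 CPM on pool3 and pool4 and at 1253, 1001, 1057 and 941 CPM on poolA to poolD, 3.34-fold lower in TU_HEV. Of 9 measured junction genes 1 was at least 2-fold lower and 1 higher, near the shares of all genes (12.7% and 11.1%). Cdh5 stood at 416 and 559.7 CPM and Gja1 at 876 and 860.2 CPM. These small differences depend on the scaling, since with the full deposited totals the medians of the junction, pan-endothelial, reference and transcription factor lists are at 0.02, 0.01, 0.10 and 0.20. Without ribosomal RNA the pan-endothelial list had a median log2 ratio of -0.40, the reference genes -0.30 with 0 of 17 past 2-fold, and the 82 measured ribosomal protein genes 0.08. The pan-endothelial list of 10 genes includes the 5 by which wells were kept, and Cdh5 is also on the junction list. Their levels are therefore not independent of the choice of cells. Endothelial transcription factors had a median of -0.20, with Erg 1.36-fold higher, Fli1 at 191.5 and 188.8 CPM, and Sox18 2.16-fold lower.

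**Figure D5:**
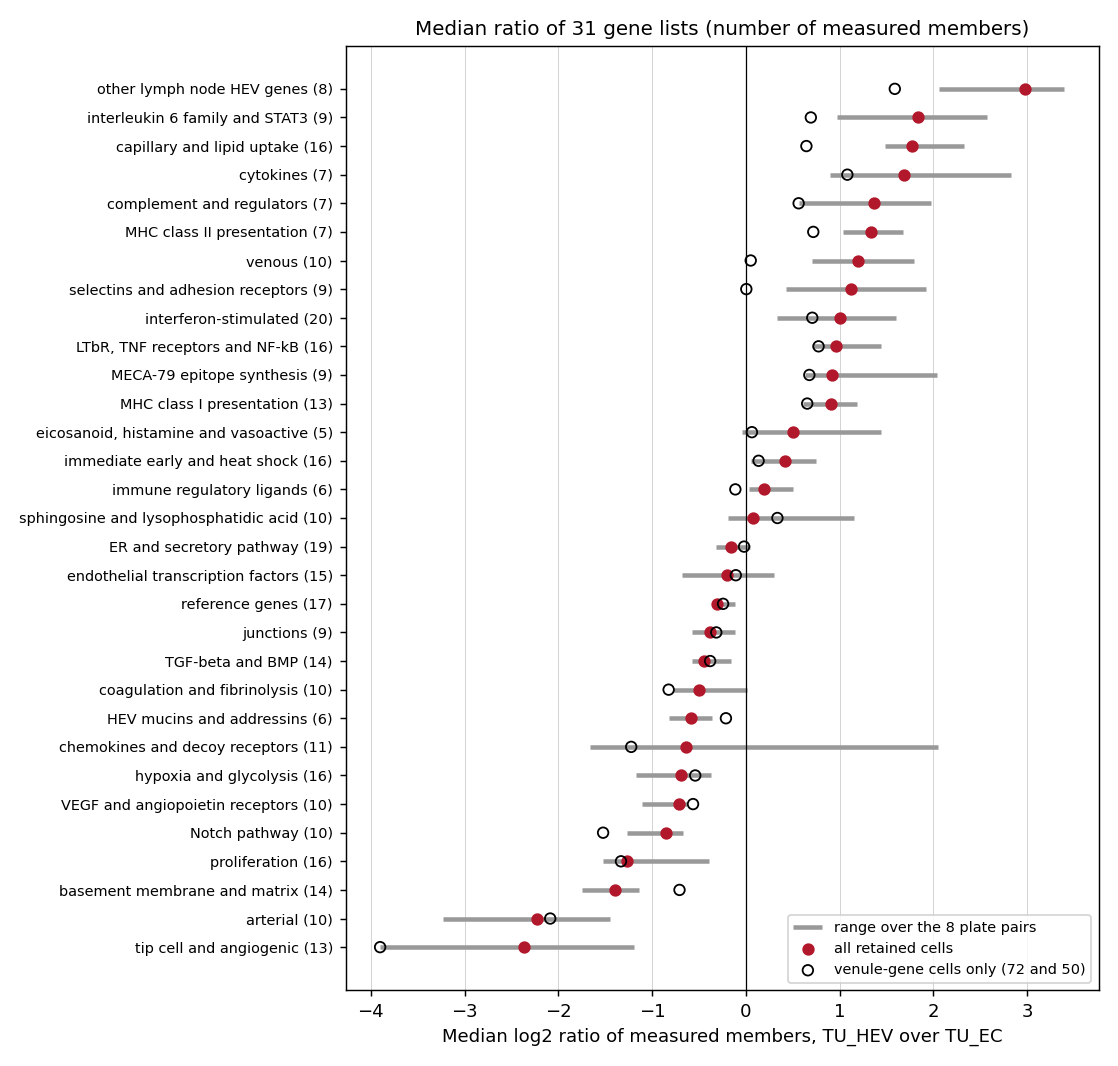
Median log2 ratio of TU_HEV over TU_EC for 31 gene lists, with the number of measured members, for all retained cells (red) and their range over the 8 plate pairs (grey), and for cells with venule genes only (open circles). Other lymph node HEV genes lie at 2.98 and tip cell genes at -2.37, and the venous and adhesion lists lie near 0 among venule-gene cells. Both of these lists hold genes by which the venule-gene cells were chosen. The numbers of measured members are those over all retained cells.

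Cell states differed in direction from list to list. Of 16 proliferation genes 0 were at least 2-fold higher in TU_HEV and 10 lower, with 2 lower in all plate pairs and a median log2 ratio of -1.26. Summed over the list, however, the median cell held more in TU_HEV, at 271.2 CPM against 177.3 CPM in TU_EC. Cells with 3 or more of these genes at 10 CPM were 25 of 98 (25.5%) in TU_HEV and 74 cells (24.1%) in TU_EC, at unequal depth. Hypoxia and glycolysis genes had a median of -0.70, with Egln3, an oxygen sensor induced by hypoxia, at no count in TU_HEV and 35.7 CPM in TU_EC, and Pfkfb3, a driver of endothelial glycolysis, 2.43-fold higher. Immediate early genes, which respond to dissociation as well as to signals in the tissue, were partly higher, with Egr1 at 2001 and 2197 CPM on pool3 and pool4 and at 424, 553, 898 and 951 CPM on poolA to poolD, 2.995-fold higher, and Fos at 2037 and 1829 CPM. Their part in the other results was not tested. Of the secretory pathway genes only Xbp1, a transcription factor of the unfolded protein response, passed 2-fold, at 837 against 365.3 CPM.

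The groups differed in the share of cells with venule genes, and the comparison was repeated on cells that held at least 2 of Selp, Ackr1, Vwf and Nr2f2 at 10 CPM, a choice made after values were seen. These were 72 of 98 TU_HEV cells (73.5%) and 50 TU_EC cells (16.3%), on unequal depth, with 82.0% and 64.6% on pool3 and pool4 and from 11.6% to 21.4% on the TU_EC plates. The levels of these 4 genes follow from the choice and are given as a description. Vwf stood at 902 and 902 CPM and Nr2f2 at 76.7 and 71.6 CPM, while Selp (4030.5 and 1884 CPM) and Ackr1 (3603 and 1169 CPM) were still higher in TU_HEV. Cells with lymphatic markers were not taken out of this comparison. Ccl21a stood at 0.527 CPM in the TU_HEV cells and 3062 CPM in the TU_EC cells, and the lymphatic marker Mmrn1 at 0 and 292.4 CPM. All 6 lymphatic markers were at least 2-fold lower in TU_HEV, so the 50 TU_EC cells may not all be venular.

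Among these venule-gene cells, the venous list had a median log2 ratio of 0.05 and the adhesion list 0.01, against 1.20 and 1.12 over all cells. The genes by which the cells were chosen are all on the venous list. Selp is also on the adhesion list and Ackr1 among the other lymph node HEV genes. The medians of these lists are therefore not independent of the choice. Icam1 stood at 1182 and 1091 CPM and Hdc at 458 and 353.7 CPM. The capillary and lipid list was at 0.65, the gp130 and STAT3 list at 0.69 and the other lymph node HEV genes at 1.59. The first 2 of these medians are over other members than those over all cells. The capillary and lipid list had 12 measured genes in place of 16. The gp130 and STAT3 list had 10 in place of 9, with Il6ra at 0.418 CPM in TU_HEV and 11.5 CPM in TU_EC.

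Several single genes kept a wide difference within venule-gene cells. Chst4 was at 294.6 CPM with no count in the 50 TU_EC cells, and Enpp2 at 453 against 23.1 CPM. Serpinb1a stood at 2141 against 173.2 CPM, Lifr at 737 against 86.3 CPM and Cxcl1 at 360.8 against 38.9 CPM. Cd36 was 4.73-fold higher within these cells, against 11.1-fold over all cells, and Vcam1 3.32-fold against 8.54-fold.

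Most tip cell and matrix genes were on the TU_EC side among venule-gene cells too. Over all genes tested in these cells, 13.9% were at least 2-fold higher and 16.6% lower. Of 11 measured tip cell genes, 7 were at least 2-fold lower and 1 higher, with a median of -3.90. Of 14 matrix genes 5 were lower and 2 higher, the latter near the share of all genes, with a median of -0.71. The higher ones were Angpt2, at 564 against 273.9 CPM and so on the other side than over all cells, Lama5 (2.44-fold) and Col15a1 (2.07-fold). Fn1 stood at 0.249 against 204.4 CPM, Igfbp3 at 114.7 against 2705 CPM, Flt4 at 5.29 against 225.1 CPM, Nid2 at 9.04 against 344.1 CPM and Gpihbp1 at 21.7 against 459 CPM. Flt4 is also a lymphatic marker, and the TU_EC cells of this comparison held other lymphatic markers as well. Col4a1 was 1.69-fold lower, against 2.63-fold over all cells. With 50 TU_EC cells in this comparison, 1 cell can weigh on a value.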

How the data were processed

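Single cells were sequenced with Smart-seq2 (23 cycles of PCR, 75-base single-end reads). The authors deposited raw counts per gene and well, and per the submitters' processing notes used STAR 2.4.1b on mm10 (GRCm38), with Subread 1.4.6-p2 and FastQC 0.11.4. For the annotation and strand setting, the status is: not given in the sources used here. Counts of a group or plate were summed over retained cells and divided by their total without the 2 ribosomal RNA features (Python 3.11.15, numpy 2.4.6, pandas 2.3.3, scipy 1.17.1). Genes that reached 10 CPM in at least 1 group were compared as ratios, with exact 95% Poisson or binomial intervals and 8 plate pairs, and no p-value. A group without counts was set to 3 counts. Named genes are the 15 largest ratios each way at 50 CPM, with a count in at least 30% of cells and 2-fold apart in all 8 plate pairs, and the 10 largest each way at 500 CPM, leaving out gene models and ribosomal, mitochondrial, immunoglobulin, T cell receptor and haemoglobin genes, plus members of the lists (2 such genes are not reported here). The members and lists were chosen with earlier results of these data known. Alternatives included TMM factors (edgeR 4.0.16, R 4.3.3), other cell filters, thinning, and each plate left out. The summing and ratio step was tested on simulated data. Gene positions are from GENCODE mouse release 21, which matched 92.1% of the symbols.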

Additional observations from a re-analysis of the deposited data

Results flagged for a closer look

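Signal outside the compared genes stood out for the ribosomal RNA features. CT010467.1 took 23.9% of the deposited counts in the retained TU_EC cells and 7.14% in TU_HEV. AY036118 took 7.71% in TU_EC and 2.21% in TU_HEV. Their part in the other differences was not tested, and the gate and the library set cannot be told apart.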

How the results depend on the processing

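No paired analysis was possible because the numbers in the labels are wells and the labels tie no wells or plates of the groups to each other. Of the genes in the text that were at least 2-fold apart, 96 stayed so the same way under each of 20 alternatives that gave a value and 32 did not, of which 6 changed sign under at least 1. Of 14 lists with a median of at least 1 either way, 5 stayed so, and 11 of all 35 lists changed sign at least once. Shares below are of the genes tested, in the order higher, lower, higher in all plate pairs and lower in all plate pairs, and are 11.1, 12.7, 3.3 and 3.79% in the report. With the full deposited totals they were 20.6, 6.61, 6.17 and 2.26%, and the median log2 ratio of all genes was 0.40. With no CPM filter but 3 counts in a group they were 17.8, 27.8, 2.65 and 3.07% (3975, 6231, 593 and 687 genes), with a median of -0.13. At 50 CPM they were 9.14, 8.81, 4.09 and 3.54%, and at 4-fold 3.55, 4.67, 1.04 and 1.57%. Leaving out 1 plate in turn, which asks fewer pairs of each gene, gave 11.1 to 14.3%, 12.9 to 18.7%, 3.95 to 7.09% and 4.35 to 10.8% for the 4 shares and a median from -0.050 to -0.023. Without pool3 the shares in all pairs were 5.76 and 7.41% (566 and 728 genes) and without pool4 7.09 and 10.8% (702 and 1073 genes). The median was 0.0068 with TMM factors, 0.012 with equal weight per cell, 0.010 with thinned cells, -0.0045 without cells with proliferation genes and -0.071 among cells with venule genes, where 1.52% of genes were lower in all plate pairs. Where cells were taken out by the same genes, signs changed for the proliferation list (0.62, over 5 measured genes in place of 16), for Lyve1 (1.97), Pdpn (7.08) and Prox1 (3.88) without cells with lymphatic markers, and for Rgs5 without cells with markers of other types (1.80). Among venule-gene cells, chosen after seeing the data, signs changed for Jam2 (-0.45) and for Rgs5, with no TU_EC count (at least 4.27), and Vwf was even (-0.00077). The cause was not tested. Depth limits low genes, since 1 count in a thinned cell is worth 20 CPM.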
